A study of Mus musculus with 23 samples.

Results

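Mouse ES cells that lacked Lin28a were set directly against ES cells labelled as lacking Lin28b, gene by gene and with no wild-type library in the fit. The genes compared were all those whose mean over these 6 RNA-seq libraries reached 1 TPM (a relative transcript level, already scaled for transcript length and library total), 15974 of the 53715 genes in the table. The other 37741 genes lay under that level, and 23945 of them were listed at 0 in all 6 libraries. The threshold fell between Dpcr1, left out, and Gm9523, kept, both with a mean of 1.00 TPM.

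Each group held 3 libraries, replicates 1 to 3, of ES cells that came from the blastocyst's inner cell mass. The labels give the treatment as knockout of Lin28a or of Lin28b and name no other allele. All cells were grown on gelatin with mouse embryonic fibroblast feeders in LIF/2i medium, in which LIF and inhibitors of MEK and GSK3 hold the naive state, and feeders were depleted before lysis. The study used CRISPR clones, lines derived from knockout mice and iPS lines, and which route gave these ES libraries is not given in the sources used here, so the targeted gene and the cell line that carries the knockout cannot be told apart. Nothing says that the replicates were separate cultures, so p-values measure the spread between these libraries, which may be technical.

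LIN28A and LIN28B are paralogs that bind let-7 precursors and keep these microRNAs from maturing, and ES cells are known mainly for the A form. Pluripotent cultures also hold a rare 2C-like state, in which genes of the 2-cell embryo (2C genes, among them the Zscan4 cluster) are switched on by the transcription factor DUX. The let-7 sequences are shown here because let-7 precursors are the LIN28 substrate and a list of let-7 targets is used below. That list was a set of gene names, and no mRNA was searched for the seed. RefSeq sequences (GRCm38.p6) for members on chromosomes 13, 9 and 17 share the seed in capitals, bases 2 to 8, which pairs with target mRNAs, and in the precursor the capitals mark GGAG, the letters LIN28 is known to bind.
mmu-let-7a-5p: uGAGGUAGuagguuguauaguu
mmu-let-7g-5p: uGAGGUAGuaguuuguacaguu
mmu-let-7e-5p: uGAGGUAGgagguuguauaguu
Mirlet7g: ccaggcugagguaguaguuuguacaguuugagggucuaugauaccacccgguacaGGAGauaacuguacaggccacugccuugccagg

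Lin28a itself (ENSMUSG00000050966.9, chromosome 4, 134003330 to 134018841 in GRCm38) stood at 14.6, 21 and 15.8 TPM in the Lin28a-null libraries and at 77.1, 81.0 and 66.6 TPM in those labelled Lin28b-null. The groups did not overlap, and the log2 difference was −2.08 ± 0.15 (SE; limma, Benjamini-Hochberg adjusted p = 0.000106). Lin28b (ENSMUSG00000063804.8, chromosome 10, 45376620 to 45486395) did not follow its label in this way. It stood at 8.81, 8.79 and 8.69 TPM in the Lin28a-null libraries and higher, at 12.6, 13.8 and 12.6 TPM, in the libraries labelled Lin28b-null (−0.52 ± 0.10, adjusted p = 0.0066). The wild-type ES libraries, which were not in the fit, held 3.63, 5.18 and 4.69 TPM, less than either group. The part of Lin28b that was deleted is not given in the sources used here, and a gene-level value cannot show whether the remaining transcript is functional. The group is therefore called by its label throughout, and every direction drawn from it carries that limit.

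The lines differed widely. A gene passed when its adjusted p lay below 0.05; it was called if, besides, log2(TPM + 1) differed by more than 1 in size. Of the 15974 genes, 1773 (11.1%) were called higher in Lin28a-null cells and 684 (4.28%) were called higher in the libraries labelled Lin28b-null. Without the fold limit, 4115 genes (25.8%) passed as higher in Lin28a-null and 3369 (21.1%) as higher in the other group, and these shares are the background for each gene list below. The median over all genes was 0.02. The excess of calls on the Lin28a-null side depended on scaling, because quantile normalization gave 1363 and 1061, which moved the Lin28a-null share of called genes from 72.2% to 56.2%. No called gene was called in the opposite direction under any setting.

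Libraries of a group resembled each other far more than those of the other group. Pearson's r of log2(TPM + 1) across genes was 0.983 to 0.985 within Lin28a-null, 0.978 to 0.987 within the labelled Lin28b-null group and 0.902 to 0.931 between them, and the first principal component held 77.9% of the variance. Between 16007 and 16349 genes reached 1 TPM in each Lin28a-null library, against 15043 to 15437 in the other group. Sequencing depth is unknown, since TPM keeps none. The library labelled Lin28b-null replicate 3 stood somewhat apart from replicates 1 and 2, and without it 1938 and 746 genes were called.

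**Figure D1:**
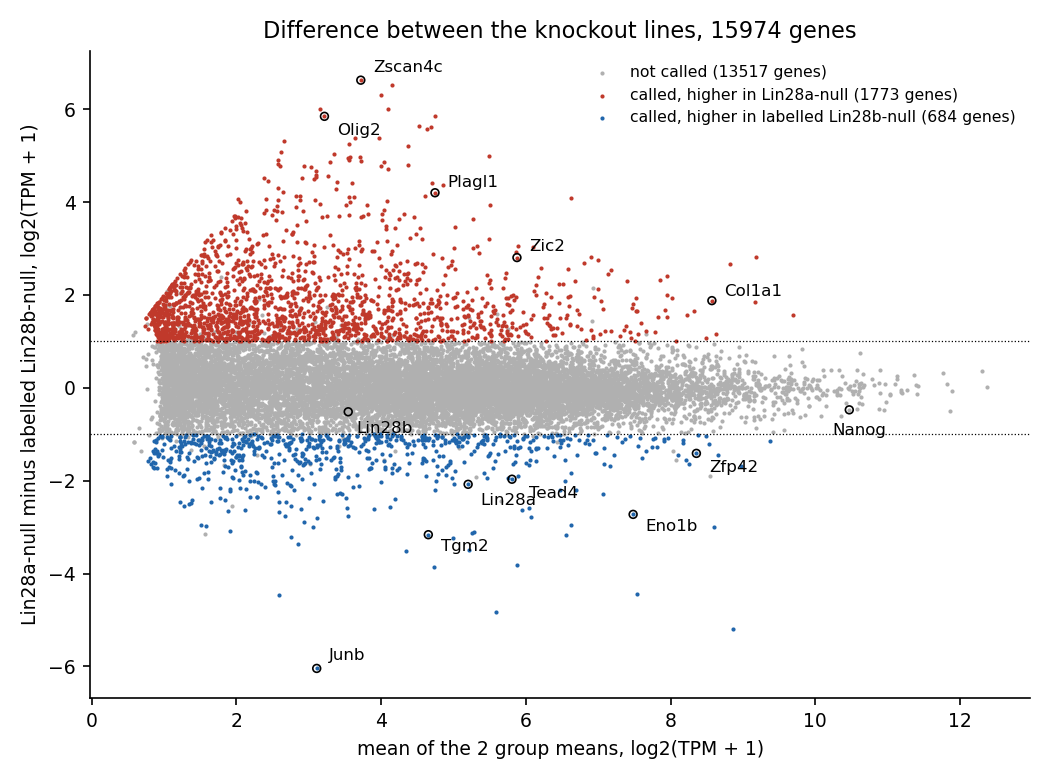
Difference between the groups (Lin28a-null minus labelled Lin28b-null, log2(TPM + 1), vertical axis) against the mean level (horizontal axis, log2(TPM + 1)) for each of the 15974 genes, with the fold limit as dotted lines. The 1773 red genes reach higher in size than the 684 blue genes, and Junb stands alone at −6.04.

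Large differences were mostly on the Lin28a-null side: 167 called genes were over 8-fold higher there (log2 over 3) and 18 were over 8-fold higher in the labelled Lin28b-null group. Of the called genes, 50 were listed at 0 in all libraries labelled Lin28b-null and 6 in all Lin28a-null libraries. The libraries overlapped in 11 of all 2457 called genes (15.4% of those tested). Over all genes tested, the groups did not overlap in 9349 (58.5%), so lack of overlap is by itself common here.

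Members of the 2C list separated the lines most. Of 65 tested members (84 in the table), 62 passed as higher in Lin28a-null cells, 57 of them called, against 25.8% and 11.1% of all genes, and the median difference was 3.95. Summed over the list, the Lin28a-null libraries held 4079, 4305 and 4133 TPM and those labelled Lin28b-null 731, 710 and 864 TPM. Zscan4c (ENSMUSG00000054272.6, chromosome 7, 11005745 to 11010547), which encodes a zinc finger and SCAN domain protein of the 2-cell embryo, was at 126, 139 and 125 TPM in Lin28a-null libraries and at 0.189, 0 and 0.958 TPM in the other group. This was the largest difference of all named genes (6.62 ± 0.24, adjusted p = 1.23e-05). A higher share of 2C-like cells and more 2C RNA in each such cell cannot be told apart in bulk RNA.

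The other Zscan4 genes gave the same picture. Zscan4d was at 157, 170 and 158 TPM against 1.24, 1.21 and 6.00 TPM (5.64 ± 0.43), and Zscan4a, Zscan4b, Zscan4e, Zscan4f and Zscan4-ps1 differed by between 4.90 and 6.52. In each of these comparisons the lowest Lin28a-null library was far above the highest of the other group, in which replicate 3 was mostly the highest. These copies are nearly identical, so reads placed uniquely could be split among them and the value of a single copy is uncertain. Outside Zscan4, the 2C genes Gm12794 (71.0, 68.3 and 75.6 against 0.684, 0.258 and 2.27 TPM), Pramef25 (5.03), Tmem92 (4.88) and Gm4340 (4.52) were higher by a similar order. Zfp352 was lower in level, at 4.64, 7.35 and 3.61 against 0.298, 0.131 and 1.01 TPM (2.07 ± 0.30).

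Exceptions in the list were few. Zfp750, in the chromosome 11 segment described below, passed in the opposite direction (6.74, 7.22 and 6.35 against 19.3, 20.1 and 13.4 TPM; −1.24), and Dppa4 did not pass (adjusted p = 0.112) whereas its partner Dppa2, an activator of the 2C program, was at 331, 340 and 331 against 82.5, 81.8 and 124 TPM (1.81 ± 0.16). The DUX gene Duxf3 itself was listed at 0 in 5 libraries and at 0.0474 TPM in Lin28a-null replicate 2, under the level needed for testing. Only uniquely mapped reads were kept, so a listing of 0 need not mean that its RNA was absent. The study itself reported strongly raised Dux RNA in Lin28 knockout cells. Of the 49 regulators of the 2C program, 16 passed as higher in Lin28a-null cells and 8 as higher in the other group, with a median of 0.02, against 25.8% and 21.1% of all genes. Besides Dppa2, the members higher in Lin28a-null cells included Nelfa (151, 156 and 151 against 75.8, 75.2 and 80.1 TPM, 0.98) and the retroviral silencer Zfp809 (0.80).

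The promoters of Zscan4c and Zscan4d are printed because they are the start regions of the first Zscan4 genes described here, and they can be read against each other to see how alike the copies are. The RefSeq promoter table (GRCm38.p6, 250 bases before to 50 after the start) matched 27 genes of the 2C list. Capitals mark TATAAA, the core of the TATA box, which was searched on both strands and starts 54 and 65 bases before the annotated starts. It was in 4473 of 32851 promoters (13.6%) and in those of 8 of the 27 genes, 4 of them Zscan4 copies. Such a match is a description of the letters and not a site or a cause. The windows are chr7:11005495-11005794 on the plus strand for Zscan4c and chr7:11166099-11166398 on the minus strand for Zscan4d.
Zscan4c: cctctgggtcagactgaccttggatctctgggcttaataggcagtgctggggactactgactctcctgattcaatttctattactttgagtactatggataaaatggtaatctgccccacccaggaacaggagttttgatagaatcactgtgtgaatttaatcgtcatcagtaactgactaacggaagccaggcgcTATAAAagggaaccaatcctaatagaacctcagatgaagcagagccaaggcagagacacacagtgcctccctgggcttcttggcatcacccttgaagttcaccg
Zscan4d: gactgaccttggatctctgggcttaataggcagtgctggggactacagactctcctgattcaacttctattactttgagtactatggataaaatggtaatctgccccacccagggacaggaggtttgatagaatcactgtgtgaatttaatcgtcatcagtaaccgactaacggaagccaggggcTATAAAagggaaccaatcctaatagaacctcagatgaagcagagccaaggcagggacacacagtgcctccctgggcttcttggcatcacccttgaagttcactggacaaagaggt

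**Figure D2:**
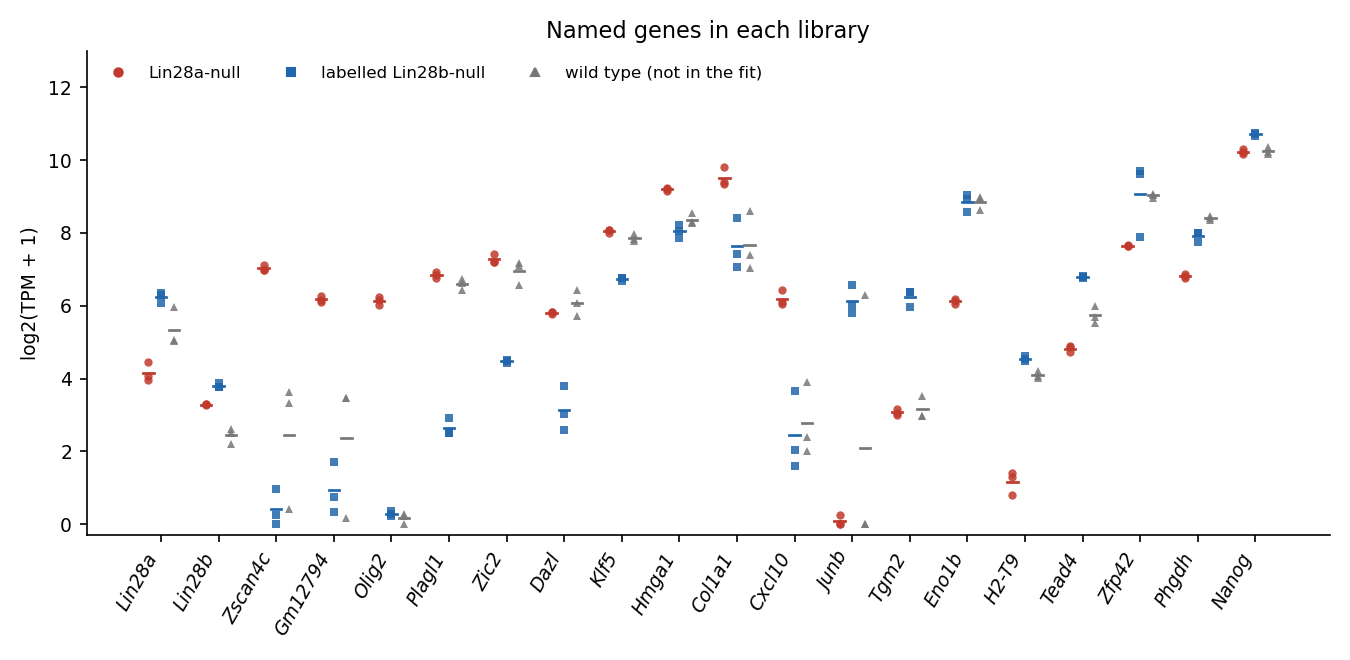
Level of 20 named genes in each library (vertical axis, log2(TPM + 1)), with points for libraries and bars for group means; wild type is drawn for reference and was not in the fit. Zscan4c, Gm12794 and Olig2 are highest in the 3 Lin28a-null libraries, while Junb, Tgm2 and H2-T9 are lowest or near 0 there.

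Pluripotency genes were present in both groups and did not move together. Nanog was at 1149, 1201 and 1262 TPM in Lin28a-null libraries and at 1694, 1707 and 1615 TPM in those labelled Lin28b-null (−0.47 ± 0.05), and Pou5f1 (−0.32) and Esrrb (−0.55) were also higher in the latter, whereas Sox2 (0.28) and Klf4 (0.29) were higher in Lin28a-null cells. With all 15 ES libraries in the fit Klf4 did not pass (adjusted p = 0.0501). Of the 25 naive genes, 13 passed as higher in Lin28a-null and 6 as higher in the labelled Lin28b-null group, with a median of 0.27. The LIF-responsive factor Klf5 was at 253, 272 and 269 against 108, 107 and 101 TPM (1.32 ± 0.06, adjusted p = 2.03e-05), and Socs3 (1.65), Gbx2 (1.68) and Fbxo15 (0.95) lay on the same side. Zfp42 (REX1), a naive marker, was at 197, 199 and 204 TPM against 780, 832 and 234 TPM, so that replicate 3 of the labelled Lin28b-null group lay near the Lin28a-null level (−1.41 ± 0.45, adjusted p = 0.0399). Zfp42 also passed without that library, and did not pass when any other library was left out (0.0902 to 0.119). The adhesion molecule Epcam, another ES marker, was at 37.3, 38.4 and 43.7 against 141, 135 and 91.4 TPM (−1.57).

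Of 22 primed and formative genes, 11 were higher in Lin28a-null cells and 4 in the other group. The neurectoderm factor Zic2 was at 146, 171 and 147 against 22, 21.5 and 20.3 TPM (2.81 ± 0.08, adjusted p = 6.07e-06), and Sox3 (2.40), the Wnt effector Lef1 (2.31) and the Nodal antagonist Lefty1 (2.19) also passed, with Tcf15 in the opposite direction (−1.24). Otx2, the formative factor, was low and overlapped: 2.23, 2.18 and 4.23 against 5.48, 8.21 and 1.57 TPM (adjusted p = 0.417), and passed (−1.03, 0.0281) without replicate 3 of the labelled Lin28b-null group. The Wnt list gave 8 and 2 of 16, led by Cdx1 (78.1, 77.0 and 86.0 against 8.15, 8.95 and 18.9 TPM, 2.74).

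Neural and germline genes added single large differences. Olig2 (ENSMUSG00000039830.8, chromosome 16, 91225457 to 91228677), a basic helix-loop-helix factor of the oligodendrocyte lineage, was at 63.7, 74.2 and 70.9 TPM in Lin28a-null libraries and at 0.282, 0.172 and 0.224 TPM in the other group (5.85 ± 0.12, adjusted p = 1.75e-06). Its neighbour Olig1 moved with it (49.9, 55.4 and 51.1 against 0.756, 0.901 and 0.829 TPM, 4.86), and of the 11 neural genes tested 6 were higher in Lin28a-null cells and 2 in the other group, such as the adhesion molecule Ncam1 (30.7, 20.2 and 17.8 against 38.9, 37.7 and 36.0 TPM, −0.72). Among 37 germline genes 21 passed as higher in Lin28a-null and 4 the other way, with a median of 0.89. The retinoic acid target Stra8 (34.1, 49.3 and 42.7 against 1.76, 1.5 and 3.96 TPM), the meiotic gene Hormad1 (3.02), the RNA-binding Dazl (2.67) and Gtsf1 (2.05) led, and the piRNA factor Piwil2 went the other way (9.21, 8.81 and 7.53 against 26.3, 23.6 and 32.7 TPM, −1.58). Summed over the germline list, wild-type libraries held 1739, 1507 and 1753 TPM. Both knockout groups lay below that, with 910 to 1008 TPM in Lin28a-null and 575 to 630 TPM in labelled Lin28b-null libraries. Stra8 did not share this, with 16.2 TPM in wild type on average.

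Imprinted genes leaned to the Lin28a-null side as well, with 26 of 46 higher there and 5 in the other group (median 0.48). Plagl1, a zinc finger factor of the imprinted network, was at 120, 114 and 108 against 4.71, 4.70 and 6.52 TPM (4.20 ± 0.13, adjusted p = 6.47e-06), and Mest at 52.4, 61.3 and 46.0 against 4.78, 5.01 and 6.63 TPM (3.07 ± 0.16). Wild-type cells held 96.1 TPM of Plagl1 and 47.7 TPM of Mest on average, so for these the labelled Lin28b-null libraries were the low ones. Phlda2 was higher in that group (−1.27). Among 19 DNA methylation genes 8 and 3 passed, with the glycosylase Tdg (1.37) and the methyltransferase Dnmt3a (1.09) higher in Lin28a-null cells.

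MicroRNA entries, singled out after their values were seen, included the miR-302/367 cluster on chromosome 3, a cluster known from pluripotent cells. The hairpin entry Mir302a was at 10.1, 8.85 and 6.61 TPM in Lin28a-null libraries and at 0.574, 0.805 and 1.18 TPM in the other group (2.36 ± 0.21, adjusted p = 0.000239). Mir302b (1.97), Mir302c (2.34), Mir302d (2.61) and Mir367 (2.41) were called in the same direction, with no overlap of the groups. The surrounding gene Larp7, on the opposite strand, differed by 0.37. Mir17hg, host of the miR-17/92 cluster, was at 27.3, 31.6 and 24.9 against 8.26, 7.48 and 9.53 TPM (1.62 ± 0.13). Of 138 microRNA entries tested 24 (17.4%) were called higher in Lin28a-null and 4 (2.9%) in the other group, against 11.1% and 4.28% of all genes. These values are reads of longer poly-A selected RNA over short entries, whose TPM is imprecise, and mature microRNAs were not measured. The mature members are printed to show that miR-302b and miR-302d share a seed (capitals, bases 2 to 8), that the RefSeq entry of miR-302c starts a base later on the same letters, and that miR-367 has another seed.
mmu-miR-302b-3p: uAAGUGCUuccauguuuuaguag
mmu-miR-302d-3p: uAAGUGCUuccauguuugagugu
mmu-miR-302c-3p: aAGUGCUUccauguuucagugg
mmu-miR-367-3p: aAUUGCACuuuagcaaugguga

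Targets of let-7 divided between the groups: of 46 tested, 13 passed as higher in Lin28a-null cells and 8 in the other group (against 25.8% and 21.1% of all genes), with a median of 0.02. The chromatin protein Hmga1 was at 569, 587 and 606 against 265, 298 and 232 TPM (1.15 ± 0.09), and its relative Hmga2 (41, 35.9 and 29.6 against 17.3, 15.5 and 20.4 TPM, 0.96) and the insulin signalling adaptor Irs2 (0.99) were also higher in Lin28a-null cells. Ccnd2 (2.14) and Thbs1 (2.81), higher in Lin28a-null cells as well, also stand in the Wnt or the fibroblast list. Trim71, an ES cell ubiquitin ligase and classical let-7 target, was at 62.8, 69.0 and 61.2 against 62.3, 61.3 and 57.6 TPM (adjusted p = 0.348), and Myc at 26.8, 42.2 and 22.5 against 32.4, 31.0 and 41.6 TPM (adjusted p = 0.448). Lin28a is itself in the let-7 target list and was its strongest member on the labelled Lin28b-null side. In the list of LIN28 and microRNA machinery 4 of 27 were higher in Lin28a-null, led by the RNA-binding Msi1 (1.04). In the other group 8 were higher (against 25.8% and 21.1% of all genes). Those 8 include Lin28a and Lin28b themselves, besides members such as Khsrp (−0.77) and Prkra (−0.71). No let-7 hairpin entry reached the level for testing.

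Genes higher in the libraries labelled Lin28b-null were fewer and smaller in difference. Junb (ENSMUSG00000052837.6, chromosome 8, 84974484 to 84978718), an AP-1 subunit, was at 0.203 TPM in Lin28a-null replicate 1 and listed at 0 in replicates 2 and 3, against 64.0, 54.3 and 94.7 TPM (−6.04 ± 0.22, adjusted p = 1.2e-05). Wild-type replicates 1 and 3 were also listed at 0, while wild-type replicate 2, at 78.2 TPM, lay within the range of the libraries labelled Lin28b-null. The crosslinking enzyme Tgm2 was at 7.94, 7.26 and 7.04 against 82.0, 81.6 and 61.1 TPM (−3.16 ± 0.13, adjusted p = 2.04e-05), with wild type at 8.08 TPM on average. St8sia1 (−2.99), Acsm4 (−2.95), the ES cell lncRNA Platr15 (−2.88), Phyhip (−2.81), the small heat shock protein gene Hspb2 (−2.77) and Aldh3a1 (−2.65) completed the 10 largest differences of the naming rule, together with H2-T9 (1.46, 0.744 and 1.65 against 22, 21.4 and 23.5 TPM, −3.37) and Eno1b (68.8, 65.1 and 71.9 against 485, 525 and 380 TPM, −2.72). Both Eno1b and H2-T9 have near-identical relatives in the genome, so their values are uncertain. The same holds for Gapdh (20.1, 54.4 and 15.6 against 218, 145 and 133 TPM) and for Rpl29, which had the largest difference of the cytosolic ribosomal protein genes but in the Lin28a-null direction (266, 330 and 746 against 17.6, 20.7 and 32.8 TPM).

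Trophoblast genes were mixed, with 4 of 16 higher in Lin28a-null, all called, and 6 in the other group, of which 2 were called. Over all genes 25.8% and 21.1% passed. On the Lin28a-null side the surface antigen Ly6a was at 271, 205 and 118 against 42.0, 28.7 and 89.5 TPM (1.95 ± 0.45). The keratin Krt8 was at 8.76, 8.52 and 10.4 against 30.0, 32.5 and 30.4 TPM (−1.65 ± 0.11), its partner Krt18 differed by −0.93, and the TEAD factor Tead4 was at 25.4, 28.6 and 28.1 against 108, 111 and 110 TPM (−1.97 ± 0.07, adjusted p = 1.06e-05).

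Stress and serine synthesis genes, many of them controlled by ATF4, were higher in the labelled Lin28b-null libraries in 23 of 48 cases and lower in 9 (median −0.25). The first enzyme of serine synthesis, Phgdh, was at 116, 108 and 111 against 255, 255 and 214 TPM (−1.10 ± 0.08), and Chac1 (15.8, 16.7 and 11 against 61.9, 51.0 and 35.4 TPM), Pck2 and Trib3 (26.2, 25.3 and 21.3 against 61.4, 56.3 and 31.1 TPM, −0.95) passed on the same side. Trib3 did not pass without Lin28a-null replicate 3 (adjusted p = 0.0625) or the labelled Lin28b-null replicate 1 (0.058) or 2 (0.0628). The endoplasmic reticulum chaperone Dnajb9 was the strongest exception (80.5, 79.0 and 72.6 against 33.7, 27.5 and 27.7 TPM, 1.36). Wild type held more than either knockout line of Phgdh (340 TPM) and Chac1 (87.6 TPM).

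Chromosomal position marked a further difference. The median over chromosome 11 was −0.34, while those of the other autosomes lay between −0.03 and 0.22. On chromosome 11, 146 of 1286 genes (11.4%) were called higher in the labelled Lin28b-null group against 4.28% of all genes, and on chromosome 6, 70 of 775 (9.03%). In 10 Mb bins, using genes of 5 TPM or more on average, chromosome 11 was near 0 as far as 50 Mb (−0.06 to 0.23) and then between −0.33 and −0.67 in every bin to its end. Chromosome 6 showed the same in bins from 110 to 140 Mb (−0.55, −0.76 and −0.55). The segments used from here, chromosome 11 from 52 Mb to its end and chromosome 6 from 110 to 145 Mb, were chosen after these medians were seen, so their values are a description with no test.

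The segment values in each library restate the pattern from which the segments were chosen. Against the wild-type mean of each gene, the median over the 794 genes of the chromosome 11 segment was 0.49, 0.50 and 0.55 in the libraries labelled Lin28b-null and 0.02, 0.00 and −0.01 in the Lin28a-null libraries. On chromosome 6 the 189 genes gave 0.56, 0.56 and 0.59 against 0.00, −0.03 and −0.02. The labelled Lin28b-null level was thus a median of 1.41-fold and 1.47-fold that of wild type on the log2(TPM + 1) scale. The 6 libraries of ilet7 ES cells, another line of the series, lay between −0.06 and 0.08 in both segments. Over the rest of the same chromosomes the medians were −0.02 and −0.08 in the labelled Lin28b-null group. They hide local differences, because single 10 Mb bins of chromosome 6 before 110 Mb differed. Against wild type these ran from −0.354 (10 to 20 Mb, 15 genes) to 0.155 (100 to 110 Mb, 16 genes). The segments held 7.91% of the genes tested, but 203 of the 684 genes (29.7%) called higher in that group, and 71 called in the other direction. The number of copies of these segments in the cells was not measured here.

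**Figure D3:**
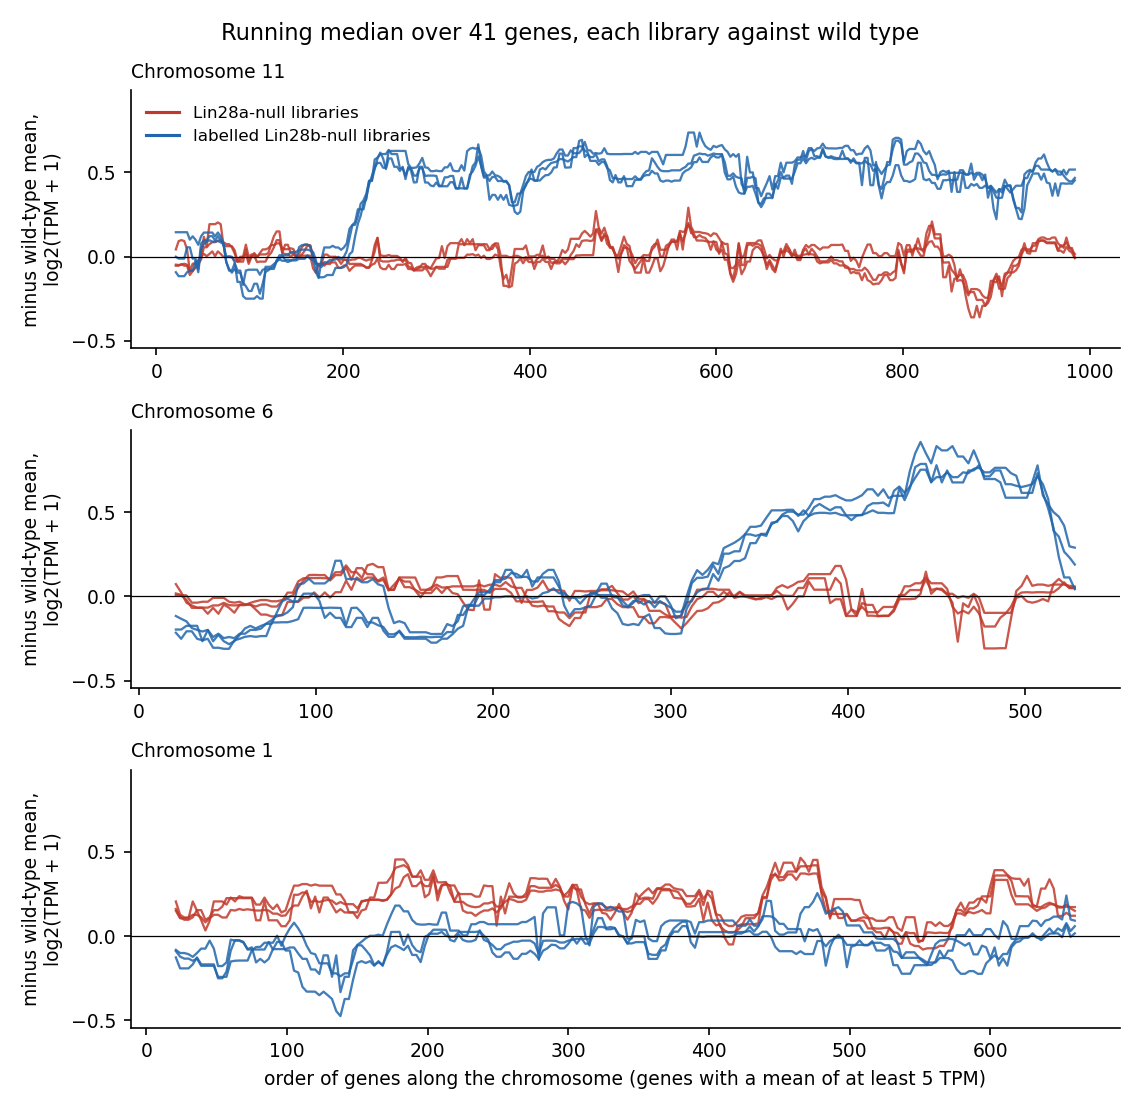
Running median over 41 neighbouring genes (mean of at least 5 TPM) of the difference of each library from the wild-type mean, log2(TPM + 1), in gene order along chromosomes 11, 6 and 1. The 3 labelled Lin28b-null libraries step up to about 0.5 on most of chromosome 11 and on the distal part of chromosome 6, and the 3 Lin28a-null libraries lie mostly slightly above 0 on chromosome 1.

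On chromosome 1 the Lin28a-null libraries stood slightly higher on the whole, though not at every point along it. Their medians against wild type were 0.22, 0.18 and 0.19 over 682 genes, those of the labelled Lin28b-null group −0.05, −0.05 and 0.01, and 138 of its 936 genes (14.7%) were called higher in Lin28a-null against 11.1% of all genes. Within 10 Mb of Lin28a 10.1% of 288 genes were called and within 10 Mb of Lin28b 14.5% of 62, against 15.4% of all. Within 20 Mb the shares were 17.4% of 535 and 14.5% of 172, so that around Lin28a the share was below or above that of all genes depending on the window.

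Several of the named genes lie in the segments. Nanog, Tead4, St8sia1, Gapdh, Ldhb and Cdkn1b are in the chromosome 6 segment, and Aldh3a1, Trp53 and Tcf7 in that of chromosome 11. Genes there could also be higher in Lin28a-null cells, such as Tmem92, Socs3, Ccnd2 and Col1a1. Without the segments 1701 genes were called higher in Lin28a-null and 480 in the labelled Lin28b-null group, which moved the Lin28a-null share from 72.2% to 78%.

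Nucleolar and mitochondrial genes were small in difference but one-sided. Of 112 nucleolar and ribosome biogenesis genes 45 were higher in the labelled Lin28b-null libraries and 7 in Lin28a-null, against 21.1% and 25.8% of all genes, with a median of −0.16. The 18S rRNA methyltransferase Emg1 (241, 265 and 244 against 509, 481 and 551 TPM, −1.03), the nucleolar Nop2 (−0.95) and the helicase Ddx47 (−0.86) lie in the chromosome 6 segment. Twistnb, an RNA polymerase I subunit on chromosome 12 and outside the segments, differed as much as Emg1 (40.4, 43.2 and 49.0 against 119, 123 and 52.3 TPM, −1.03 ± 0.31, adjusted p = 0.0325). Twistnb passed without replicate 3 of the labelled Lin28b-null group but not when any other library was left out (adjusted p = 0.0625 to 0.0992). Outside the segments the count was 34 and 7 of 100 and the median −0.14. Nolc1 went the other way (269, 343 and 295 against 232, 210 and 228 TPM, 0.43), as did nucleolin, Ncl (738, 760 and 739 against 600, 626 and 700 TPM, 0.22 ± 0.06, adjusted p = 0.0275). Ncl passed without replicate 3 of the labelled Lin28b-null group but not when any other library was left out (adjusted p = 0.0619 to 0.0895). Fibrillarin (Fbl, adjusted p = 0.57), nucleophosmin (Npm1, 0.358) and the corepressor Trim28 (0.246) did not pass.

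Mitochondrial ribosomal protein genes gave 50 of 75 higher in the labelled Lin28b-null group and 2 in Lin28a-null (median −0.32), and outside the segments 41 and 2 of 66 (−0.31). Mrpl38 (81.0, 79.6 and 84.3 against 189, 188 and 163 TPM, −1.13), Mrpl27 (−1.06), Mrpl55 (−1.04) and Mrpl51 (−1.02) led and all lie in the segments, and Mrpl50 was the strongest in the opposite direction (0.44). Nuclear-encoded respiratory chain genes gave 46 and 4 of 79 (−0.27), and outside the segments 42 and 4 of 75 (−0.26). The complex I subunit Ndufa9, which lies in the chromosome 6 segment, was at 139, 147 and 145 against 361, 356 and 332 TPM (−1.28 ± 0.05). Genes encoded by mitochondrial DNA lay on the other side, with 8 of 13 higher in Lin28a-null and none in the other group (median 0.32), such as mt-Nd5 (0.55) and mt-Nd6 (0.69).

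Other housekeeping lists had passing members on both sides, in shares near or below those of all genes (25.8% higher in Lin28a-null and 21.1% in the other group). Cytosolic ribosomal protein genes gave 13 of 85 higher in Lin28a-null and 18 in the other group (median −0.04), and 4 and 1 were called. Rpl29 was the strongest on the Lin28a-null side (4.08) and Rpl34 on the other (249, 235 and 241 against 571, 565 and 541 TPM, −1.20). Glycolytic genes gave 4 and 5 of 26, with a median of 0.00 that was 0.18 without the 8 members in the segments. Small nucleolar RNAs gave 11 and 7 of 71, cholesterol synthesis genes 6 and 6 of 24, and cell cycle genes 15 and 15 of 54. Among the last, the CDK inhibitors Cdkn2b (36.3, 32.6 and 31.7 against 5.68, 6.33 and 12.4 TPM, 1.99) and Cdkn1c (1.20) were higher in Lin28a-null cells, and Cdkn1b (20.4, 21.1 and 19.6 against 62.8, 42.3 and 35.3 TPM, −1.12) in the other group.

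Targets of p53 gave 21 of 52 higher in Lin28a-null and 12 in the labelled Lin28b-null group (median 0.09, and 0.17 outside the segments). The CDK inhibitor Cdkn1a was at 726, 644 and 639 against 332, 330 and 433 TPM (0.88 ± 0.11), and Fas (2.64), Rprm (1.86) and Gadd45a (1.28) lay on the same side, with Rrm2b on the other (−1.08). Trp53 itself, in the chromosome 11 segment, was at 455, 458 and 507 against 536, 550 and 592 TPM (−0.24, adjusted p = 0.0186), and did not pass without Lin28a-null replicate 1 (0.0634) or 2 (0.0689).

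Markers of fibroblasts and feeders also differed between the groups. Of the 53 markers 47 were higher in Lin28a-null libraries and none in the other group (median 1.70), and their sum was 10640 to 13779 TPM against 4051 to 6250 TPM. Col1a1, the main fibroblast collagen, was at 892, 673 and 644 against 169, 134 and 340 TPM (1.88 ± 0.33), and Dcn (2.56), Acta2 (2.56) and Col8a1 (2.88) moved with it. No marker was at 0 in any of the 6 libraries, and the highest labelled Lin28b-null library, replicate 3, had a lower sum than every Lin28a-null library.

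Many lists leaned the same way as these markers, among them the 2C, germline, imprinted, Wnt and primed genes described above, the histone genes, and the interferon response, immediate early, ERK feedback, endoderm and Hox genes. Dcn stands in both the imprinted and the fibroblast list. Replicate 3 had the highest sum of the labelled Lin28b-null libraries for the markers and for each list just named except the primed genes. For the primed list it had the lowest (1123, 1122 and 1034 TPM). Among Lin28a-null libraries, replicate 1 had the highest marker sum (13779 TPM). It also had the highest imprinted, histone, Wnt, interferon, immediate early, endoderm and Hox sums. Its 2C (4079 TPM), germline and primed sums were the lowest of that group, and its ERK feedback sum lay between the others. Interferon genes gave 26 of 63 higher in Lin28a-null and 4 in the other group (median 0.65, but 0.26 without the labelled Lin28b-null replicate 1), with Ifit3 at 122, 82.9 and 101 against 1.83, 3.04 and 16.4 TPM and the chemokine Cxcl10 at 67.1, 65.0 and 85.9 against 2.05, 3.10 and 11.7 TPM (3.75 ± 0.50). Replicate 3 was the highest of its group for both, and Ifitm1 went the other way (−1.12). Immediate early genes gave 15 and 1 of 23 (median 0.90), with the nuclear receptor Nr4a2 at 87.0, 68.6 and 56.3 against 3.80, 3.59 and 15.2 TPM (3.31) and Fosl2 at 2.62, and Junb was the exception. ERK feedback genes gave 11 and 1 of 19, with Spry2 at 363, 360 and 354 against 76.1, 77.2 and 135 TPM (1.94). Endoderm genes gave 8 and 3 of 15, among them the basement membrane collagens Col4a1 (1.69) and Col4a2 (1.73), with the laminin Lama1 the strongest exception (16.1, 16.0 and 15.1 against 49.5, 46.2 and 41.6 TPM, −1.48), and Hox genes 12 and 0 of 23. The part of feeder RNA in any of these lists was not tested. Of the marker genes 42 were called higher in Lin28a-null and 0 in the other group. Leaving them out of the fit took away only these calls, with 1731 and 684 left. That step cannot show how much feeder RNA the values of other genes hold.

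Class I MHC genes split within the family, 11 of 32 higher in Lin28a-null and 10 in the other group. H2-D1 (414, 324 and 316 against 44.4, 48.6 and 95.0 TPM, 2.54), H2-Q6 (2.98), H2-Q7 (2.54) and H2-Bl (28.5, 31.9 and 35 against 0, 0.299 and 0 TPM, 4.91) were higher in Lin28a-null cells, and H2-T9 was the strongest in reverse. Replication-dependent histone genes, whose mRNAs mostly lack poly-A tails, gave 15 and 1 of 37 (median 0.52, but 0.23 under quantile normalization, and 0.80 without the labelled Lin28b-null replicate 3), with Hist1h4i at 47.7, 49.1 and 45.9 against 6.25, 5.82 and 7.71 TPM (2.68). Ubd, a ubiquitin-like gene induced by interferon, was at 30.0, 36.9 and 37.2 against 0, 0.190 and 0 TPM (5.07), and the apolipoprotein Apoa2 at 38.6, 38.6 and 39.2 TPM against a listing of 0 in all 3 libraries labelled Lin28b-null.

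Sex-linked genes differed too. Ddx3y was at 10.9, 10.4 and 13.2 TPM in Lin28a-null libraries and at 2.27, 2.03 and 2.29 TPM in the other group, with wild type at 0.195 TPM on average. Xist, the RNA of the inactive X chromosome, was at 11.9, 12.9 and 6.00 against 2.37, 1.14 and 4.04 TPM (1.70), and its antisense partner Tsix was higher in the labelled Lin28b-null group (−1.81). Xist and Tsix overlap, and whether counting used strand is not given in the sources used here. Leaving out the genes of the X and Y chromosomes took away only their own calls, with 1711 and 663 left.

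**Figure D4:**
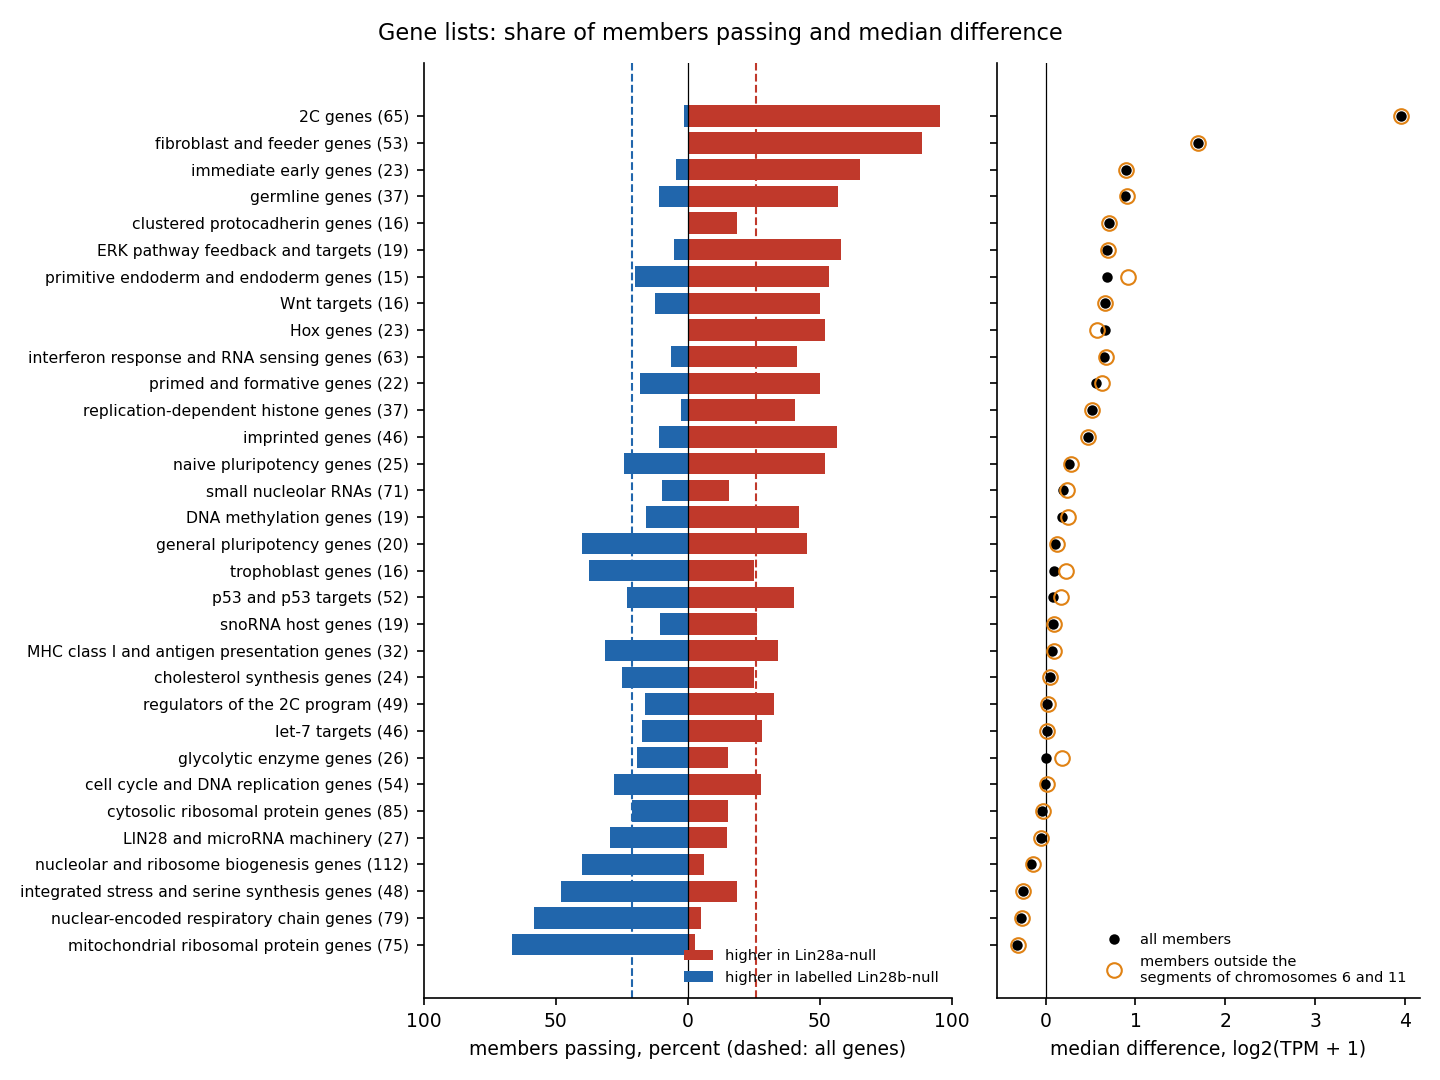
Left, share of members passing as higher in Lin28a-null (red, to the right) or in the labelled Lin28b-null group (blue, to the left) for lists of at least 15 tested genes, with the shares over all genes (25.8% and 21.1%) dashed. Right, median difference of each list over all members (black) and over members outside the segments of chromosomes 6 and 11 (open circles), which run from 3.95 for 2C genes to −0.32 for mitochondrial ribosomal protein genes.

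**Figure D5:**
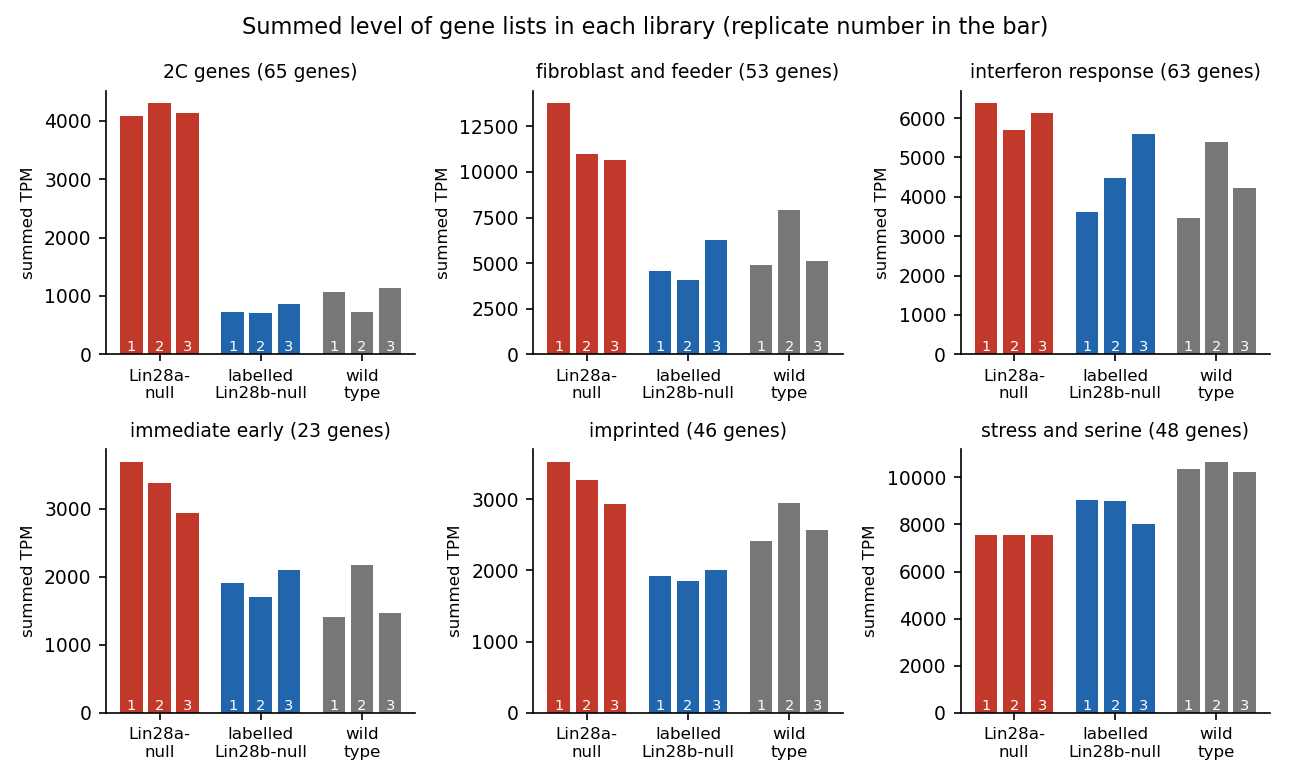
Summed TPM (vertical axis) of 6 gene lists in each library, with the replicate number in each bar and wild type for reference. The 2C sum is 4079 to 4305 TPM in Lin28a-null and 710 to 864 TPM in labelled Lin28b-null libraries, and the fibroblast sum is 10640 to 13779 against 4051 to 6250 TPM.

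Set beside the 3 wild-type ES libraries, which took no part in choosing or testing the genes, the called genes were placed as follows. Of the 1773 genes higher in Lin28a-null cells, the wild-type mean lay between the knockout means for 69.7%, below both for 21.9% and above both for 8.35%, and it was nearer the labelled Lin28b-null mean for 72.2%. Of the 684 higher in the labelled Lin28b-null group, it lay between for 66.5% and was nearer the Lin28a-null mean for 53.5%. Wild-type libraries varied among themselves, with Lin28a at 31.5, 61.2 and 32.0 TPM and Zscan4c at 9.03, 0.344 and 11.5 TPM, so these shares are a description only. Replicate 2 stood apart in both, toward the labelled Lin28b-null group, as it did for Junb and Gm12794 (10.1, 0.119 and 10.0 TPM). For Otx2 it stood apart away from both knockout groups (36.9, 105 and 35.6 TPM). The weight of that library in these shares was not tested. Among gene classes, unprocessed pseudogenes held the highest share of genes called higher in Lin28a-null (42 of 96, 43.8%, against 10.7% of protein-coding genes), among them Zscan4a and several Obox4 copies as the annotation classes them.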

How the data were processed

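Gene levels were measured by poly-A selected RNA-seq in 23 samples, of which 6 ES cell libraries were compared (3 labelled Lin28a-null, 3 labelled Lin28b-null). The values are TPM deposited by the authors, who called bases with CASAVA 1.8, trimmed reads with Trimmomatic, aligned them to mm10 with HISAT2, removed duplicates with Picard, kept uniquely mapped reads and quantified GENCODE genes with StringTie. Unique mapping lowers or shifts values of genes with near-identical copies. TPM columns summed to 999488 to 999886, keep no depth and allow no counting interval. Columns were matched to samples by title. Of 53715 identifiers 53620 matched GENCODE M21, which gave symbols, classes and GRCm38 coordinates, and 27 symbols turned into dates were restored. All columns of values belonged to the series (0 were not used).

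Genes averaging 1 TPM or more entered the test, which used limma (version 3.58.1, under R 4.3.3) on log2(TPM + 1) (moderated, two-sided, variance trend, 2 groups, Benjamini-Hochberg over all 15974 genes), after the procedure was tested on simulated data. Fold changes on this scale understate those of low genes. Lists are described by counts and medians with no set test. Named genes were a set of 29, the 10 largest differences in each direction (mean of at least 5 TPM in the higher group, no overlap, no clone names or pseudogenes), and of each list up to 4 passing members of the main direction and the strongest of the other. The genes, the lists and the comparison were chosen with earlier results of these data known. Segments of chromosomes 6 and 11 and the microRNA entries were added after seeing the data. Alternatives were pseudocounts of 0.1 and 0.5, 5 TPM or no minimum, quantile and median-of-ratios scaling, no trend, all 15 ES libraries, a replicate block, leaving out each library, and leaving out X and Y, feeder or segment genes.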

Additional observations from a re-analysis of the deposited data

How the results depend on the processing

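No called gene was called in the opposite direction in any setting tried, but counts moved. A minimum of 5 TPM gave 1031 genes higher in Lin28a-null (1773 otherwise), with fewer genes tested. Quantile normalization gave 1061 genes higher in the labelled Lin28b-null group (684 otherwise), the cause of which was not tested, and leaving out chromosomes 1, 6 and 11, chosen after seeing the data, gave 437. Leaving out a library gave 1605 to 1938 and 660 to 746 genes. The median of the trophoblast genes turned from 0.0938 to −0.886 at 5 TPM and to −0.209 under quantile normalization. The median of the histone genes was 1.15 at 5 TPM, 0.949 with a pseudocount of 0.1 and 0.228 under quantile normalization (0.519 otherwise), and that of the germline genes 0.561 without a filter (0.885 otherwise). Zfp42 did not pass without a filter (adjusted p = 0.0782) or trend (0.0601), and Otx2 passed (−1.03) without replicate 3 of the labelled Lin28b-null group. That library also moved several lists, whose medians without it were 2.11 for fibroblast genes, 0.90 for interferon and 1.05 for immediate early genes, against 1.70, 0.65 and 0.90. Replicate numbers did not pair the libraries (correlations of deviations −0.08, 0.01 and −0.14), and a replicate block gave 1743 and 676 genes. With the block Twistnb (adjusted p = 0.0535) did not pass, and nucleolin (Ncl) neither with it (0.0579) nor with all 15 ES libraries (0.0555), and Klf4 not with the latter (0.0501). The main limits are unknown depth, 3 libraries per genotype whose separate origin is not given, no measure of copy number, and fibroblast marker levels that differ between the groups.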
